A study of Mus musculus with 24 samples.

Results

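In 891 genomic regions of mouse liver, peaks of histone H3 acetylated at lysine 27 (H3K27ac) were called in males and females of both strains studied, and covered more bases in males than in females in both strains. These regions were chosen by that difference in length: overlapping peaks (at least 1 bp) of the 4 peak lists were joined on the 19 autosomes, and a region was kept where every list held a peak and the bases covered by the male list were at least 1.5 times, and at least 300 bp more than, those covered by the female list in C57BL/6J (B6) and again in CAST/EiJ (CAST) mice. They were 891 of 47477 regions with a peak in all 4 lists (shared regions) and of 117616 joined regions in all. Because the male and female lengths selected them, those lengths, and the peak heights taken from the same lists, are given as a description and were not tested.

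The livers came from 8-week-old mice, 5 males and 5 females of each strain, and 1 input library (sheared chromatin without antibody) was made for each of the 4 groups. The 20 liver libraries were merged by strain and sex before peaks were called, so each group is 1 list with no replicate values, and no difference between lists could be set against the spread between mice. The strain field of the labels gives CAST/EiJ for every female and C57BL/6J for every male, while the titles divide each sex between both strains; the groups follow the titles. No genotype, treatment or transgene other than strain and sex distinguished the groups. The male lists held 79862 (B6) and 90228 (CAST) peaks and the female lists 82181 and 84645, and the read depth behind them is unknown from the lists.

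H3K27ac marks nucleosomes at active promoters and enhancers, and a longer peak means that more of the surrounding chromatin passed the caller's threshold over input. Mouse liver expresses many genes at different levels in the sexes, among them cytochromes P450, major urinary proteins and sulfotransferases, and much of this difference depends on the pituitary's pattern of growth hormone release, which is pulsatile in males and near-continuous in females. Growth hormone acts through its receptor Ghr and the transcription factor STAT5, which binds the element TTCNNNGAA.

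The sequence below is shown for 5 of the regions, to let bases that lay inside called male peaks and outside called female peaks be read beside the values. Each is up to 300 bases, on the plus strand of the B6 reference (NCBIM37, the same assembly as mm9), from the middle of the longest stretch that both male lists covered and neither female list covered. Windows over any annotated exon were left out. Of the 31 windows available among the 12 regions of largest difference and the 28 at listed genes, 4 held TTCNNNGAA, and 3 of these are printed with the region of the largest difference and the region over the start of C6, chosen after the matches were seen. Capitals mark a match to TTCNNNGAA. The windows of the Prim2 and C6 regions held no match to any of the 5 elements searched, so they have no capitals.
Prim2 region, chr1:33271350-33271649: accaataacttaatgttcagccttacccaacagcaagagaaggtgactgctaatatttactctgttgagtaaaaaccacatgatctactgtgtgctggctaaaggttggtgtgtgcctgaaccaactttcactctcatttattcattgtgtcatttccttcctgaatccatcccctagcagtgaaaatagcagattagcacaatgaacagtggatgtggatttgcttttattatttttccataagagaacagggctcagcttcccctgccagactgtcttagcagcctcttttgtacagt
Megf11 region, chr9:64394278-64394577: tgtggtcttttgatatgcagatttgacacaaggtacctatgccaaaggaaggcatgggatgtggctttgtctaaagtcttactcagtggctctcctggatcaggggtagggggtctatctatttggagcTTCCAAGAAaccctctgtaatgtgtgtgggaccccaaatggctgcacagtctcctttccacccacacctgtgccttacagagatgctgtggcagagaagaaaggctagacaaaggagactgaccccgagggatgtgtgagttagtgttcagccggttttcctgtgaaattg
Mgat5 region, chr1:129166453-129166752: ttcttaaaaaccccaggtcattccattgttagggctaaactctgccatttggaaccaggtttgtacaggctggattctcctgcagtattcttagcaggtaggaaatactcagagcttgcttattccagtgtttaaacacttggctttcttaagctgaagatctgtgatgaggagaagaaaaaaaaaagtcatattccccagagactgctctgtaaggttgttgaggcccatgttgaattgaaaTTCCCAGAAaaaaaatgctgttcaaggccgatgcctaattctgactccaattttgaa
Arntl region, chr7:120384171-120384390: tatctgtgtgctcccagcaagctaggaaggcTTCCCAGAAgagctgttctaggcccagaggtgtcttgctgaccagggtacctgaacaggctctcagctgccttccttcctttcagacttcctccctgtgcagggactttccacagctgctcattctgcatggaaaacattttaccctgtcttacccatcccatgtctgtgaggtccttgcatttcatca
C6 region, chr15:4678828-4679127: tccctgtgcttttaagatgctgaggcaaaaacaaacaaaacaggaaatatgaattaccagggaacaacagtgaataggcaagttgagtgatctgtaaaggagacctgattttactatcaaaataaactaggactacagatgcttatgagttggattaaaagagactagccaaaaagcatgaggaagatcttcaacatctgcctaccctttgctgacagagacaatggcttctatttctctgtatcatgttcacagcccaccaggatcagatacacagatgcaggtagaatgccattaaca

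The match in the Mgat5 window was TTCCCAGAA at chr1:129166696-129166704, and the same letters stood at chr7:120384202-120384210 in an intron of Arntl, which encodes the core clock activator BMAL1. In the Megf11 window the match was TTCCAAGAA at chr9:64394407-64394415. Elements of these lengths recur often in the genome, and a match is only a description of the letters.

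The median region spanned 1322 bp. The B6 male list covered a median of 1085 bp of it and the B6 female list 526 bp, while the CAST male list covered 1080 bp and the CAST female list 506 bp. The median ratio of male to female length was 2.05 in B6 and 2.06 in CAST, and the median difference 560 and 557 bp. Over all 47477 shared regions the median ratio was 1.03 in B6 and 1.05 in CAST, with median lengths of 1099, 1043, 1087 and 990 bp in B6 males, B6 females, CAST males and CAST females. In the male lists the chosen regions were therefore about as long as the typical shared region, and in the female lists they were shorter.

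In B6, 4089 shared regions (8.61%) met the male-wider rule, and in CAST 4962 (10.5%). The rule was met in both strains by 891 (1.88%). The same rule turned round, females over males, was met in both strains by 263 (0.554%), and by 2196 in B6 and 1655 in CAST. Of the regions that were wider in males in B6, 21.8% (95% Wilson interval 20.6 to 23.1, counting error only, as for all intervals here) were wider in males in CAST. Of the shared regions that were not wider in males in B6, 9.38% (9.11 to 9.66) were wider in males in CAST. Among regions wider in females in B6, however, 405 of 2196 (18.4%, 16.9 to 20.1) were wider in males in CAST, more than the 263 that were wider in females there as well. Among regions wider in males in B6, 205 (5.01%, 4.39 to 5.73) were wider in females in CAST. Comparing each strain's males with the other strain's females gave 750 regions.

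**Figure D1:**
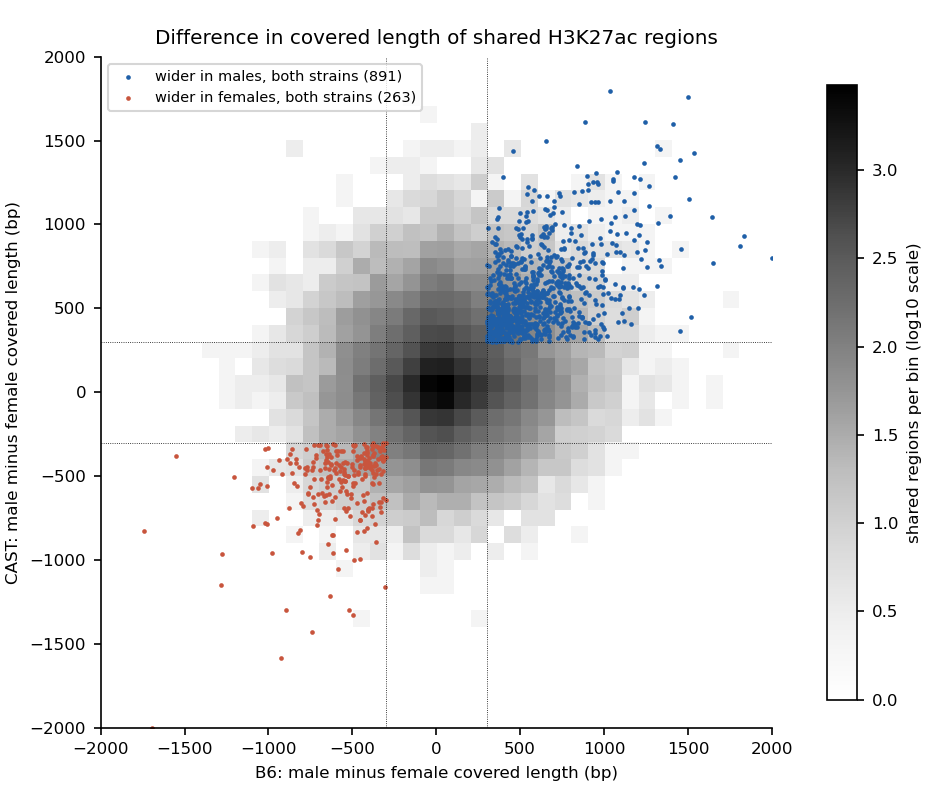
Difference in covered length, male minus female, in B6 (horizontal axis, bp) and CAST (vertical axis, bp). Grey squares count the 47477 shared regions in 100 bp bins on a log10 colour scale, blue points are the 891 male-wider regions, red points the 263 female-wider regions, dotted lines stand at 300 bp, and values beyond 2000 bp are drawn at the edge; the grey mass sits around 0 and both coloured groups lie in its corners because the rule placed them there.

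Close to the thresholds, the 3 regions just inside were one near Notch2 (chr3:97849241-97850388), where the CAST lists covered 854 bp in males and 554 bp in females, one near Sp5 (chr2:70174614-70176038), with 1425 and 950 bp in B6, and one near Elmod3 (chr6:72539551-72541147), with 1527 and 1018 bp in CAST. Just outside were a region near Adam12 (chr7:141415965-141417388), with 1060 and 707 bp in CAST, one near Cand1 (chr10:118628821-118630389), with 1569 and 1047 bp, and one near Gfra1 (chr19:58376441-58377841), with 1401 and 935 bp. The last 3 were well past both thresholds in B6, by differences of 683, 802 and 509 bp, and missed the ratio of 1.5 in CAST in the third digit.

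The fold enrichment over input of a region's highest-scoring peak had a median of 2.60 (B6) and 2.75 (CAST) in males and of 2.38 (B6) and 2.46 (CAST) in females, against 3.03 and 3.25 in males and 3.03 and 3.07 in females over all shared regions. It was higher in males in both strains for 445 of the 891 regions (49.9%) and higher in females in both strains for 114 (12.8%), against 32.0% and 18.4% of all shared regions. Ranked within its own list by the caller's score, that peak stood at a median percentile of 49.96 (B6) and 53.8 (CAST) in males and of 40.003 (B6) and 39.6 (CAST) in females, and the rank was higher in males in both strains for 492 regions (55.2%). Over all shared regions the rank was higher in males in both strains for 31.9% and higher in females in both for 19.9%. The female peaks were often weak calls: in 334 of the 891 regions (37.5%) the female peak of at least 1 strain had a -log10 q under 5, against 12.6% of all shared regions. The male peak of at least 1 strain was that weak in 85 (9.54%), against 8.34% of all shared regions.

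**Figure D2:**
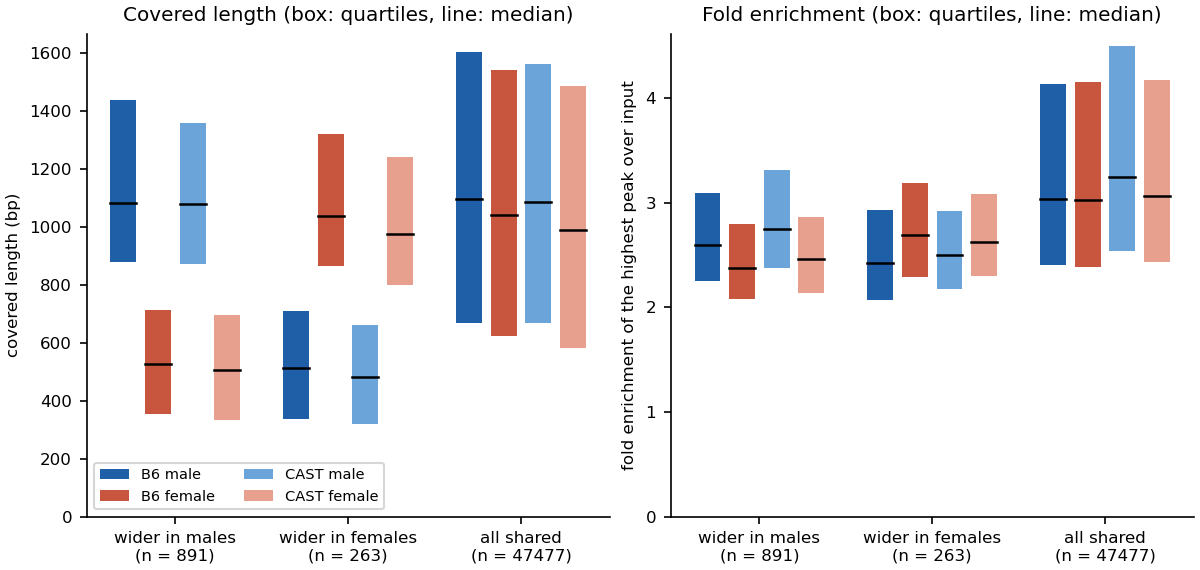
Covered length in bp (left) and fold enrichment over input of the highest-scoring peak (right) in the 4 lists, for male-wider, female-wider and all shared regions, as quartile boxes with the median as a line. The male and female boxes of covered length stand apart in both chosen classes, where medians run from 1085 bp down to 506 bp in the male-wider class, while the boxes of fold enrichment overlap.

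Bases covered in the males but not in the females of a strain are called extra or gained here. The words give no direction of change. These bases mostly flanked a female peak. In B6, extra male bases lay at both ends of the female coverage in 612 regions (68.7%) and at 1 end only in 213 (23.9%). Some lay between 2 or more female peaks, with or without bridging them, in 156 (17.5%), some of which also gained bases at an end. In CAST the counts were 627, 197 and 147. The female coverage lay wholly inside the male coverage in 552 regions (62.0%) in B6 and 548 (61.5%) in CAST. A median of 608 bp was covered in B6 males but not B6 females, and 586 bp in CAST males but not CAST females. The point of highest signal in the top B6 male peak fell inside a B6 female peak in 683 regions (76.7%, 73.8 to 79.3).

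The rule did not use the side on which the extra bases lay, but the side comes from the same coverage that chose the regions. No share over all shared regions is available for it. The longer flank was on the same side of the female peak in both strains in 519 of 758 regions that had a longer flank in each (68.5%, 65.1 to 71.7). Where 1 flank was at least 2 times the other in both strains, the side was the same in 383 of 527 regions (72.7%, 68.7 to 76.3). The 234 female-wider regions that could be scored gave 154 on the same side (65.8%, 59.5 to 71.6), an interval that includes the male-wider value. The rule asks for at least 300 extra male bases in both strains within 1 region, so some overlap of the gains is fixed by it. The values in this paragraph only describe the regions. Base by base, 49.1% of the bases gained in B6 males were also gained in CAST males, and 50.2% the other way. The median region shared 315 bp of gain, and 861 of 891 (96.6%) held a stretch covered in both male lists and neither female list, of median length 270 bp. The shared side pointed towards the nearest protein-coding start in 251 of 486 regions (51.6%, 47.2 to 56.1) and away from it in the others.

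Most of the regions lay away from promoters. Of the 891, 731 (82.0%, 79.4 to 84.4) lay beyond 2.5 kb of every annotated start of a transcript and 59 (6.62%, 5.17 to 8.45) covered one, while 62.8% (62.4 to 63.3) of all shared regions were that far and 24.6% (24.2 to 24.97) covered a start. The female-wider regions had 80.2% (74.99 to 84.6) beyond 2.5 kb and 8.37% (5.59 to 12.3) over a start, with intervals that include the male-wider values. The median distance to a start was 13.02 kb, against 6.97 kb over all shared regions. Protein-coding gene bodies overlapped 545 of the regions (61.2%, 57.9 to 64.3), against 66.0% of shared regions: 376 (42.2%) lay in a gene body without touching an exon and 346 (38.8%) lay outside gene bodies. The GC content had a median of 46.2%, against 48.2% for all shared regions. These shares were set side by side only, with no test of the difference.

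**Figure D3:**
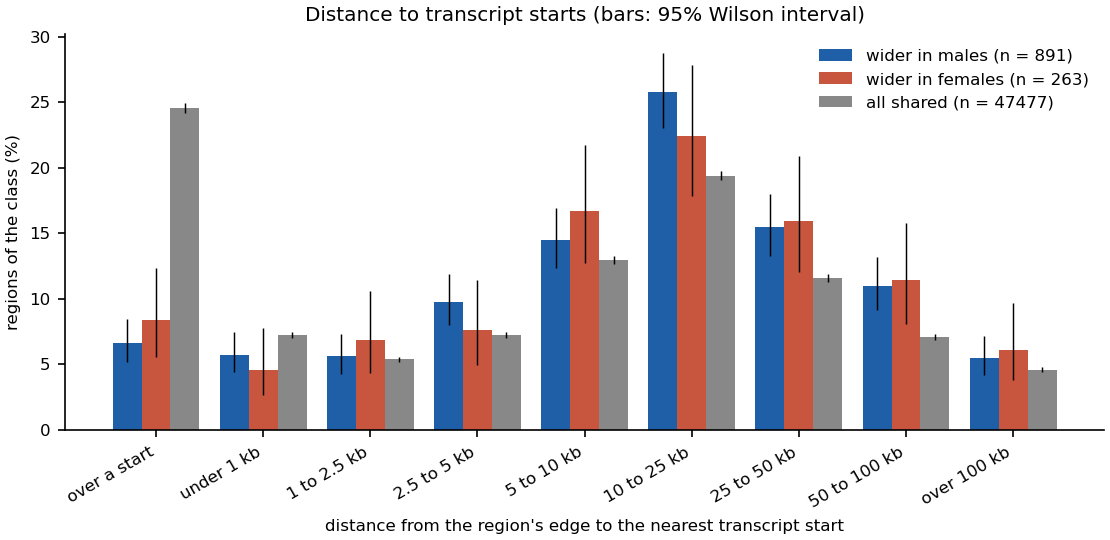
Share of regions (vertical axis, %) by distance from the region's edge to the nearest annotated transcript start, for 891 male-wider (blue), 263 female-wider (red) and 47477 shared regions (grey), with 95% Wilson intervals. Over a start stand 6.62% of male-wider and 24.6% of shared regions, and from 10 to 25 kb 25.8% and 19.4%.

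Every autosome held male-wider regions, from 1.44% of its shared regions on chromosome 17 to 2.25% on chromosome 3, and on all 19 the share was higher than that of female-wider regions. Regions called in both male lists and neither female list (2779 on the autosomes) stood within 50 kb of 259 male-wider regions (29.1%, 26.2 to 32.1) and of 24.4% of all shared regions (24.04 to 24.8). Regions called in both female lists only (1413) stood within 50 kb of 101 (11.3%, 9.42 to 13.6) and of 13.5% (13.2 to 13.8). Around the female-wider regions these shares were 21.7% (17.1 to 27.04) for male-only and 19.01% (14.7 to 24.2) for female-only neighbours.

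In 300 bp windows centred on the highest B6 male peak, TTCNNNGAA (read the same on both strands) occurred in 98 of 891 regions (10.999%, 9.11 to 13.2), in 8.84% of all shared regions (8.59 to 9.10) and in 6.84% of female-wider regions (4.37 to 10.6). TTGCNNAA, a C/EBP element searched on both strands, occurred in 15.6% (13.4 to 18.1), 12.8% and 17.1% (13.04 to 22.1). CAAAGTCCA, an HNF4A element, occurred in 17 regions (1.91%, 1.19 to 3.03), in 1.02% of shared regions and in 0.760% of female-wider regions (0.209 to 2.73). TGTTTAC, a FOXA element, occurred in 34 (3.82%, 2.74 to 5.29), in 4.87% of shared regions and in 6.08% of female-wider regions (3.78 to 9.65). ATCGAT, bound by ONECUT and CUX factors, occurred in 14 (1.57%, 0.938 to 2.62), in 1.11% of shared regions and in 0.760% of female-wider regions (0.209 to 2.73). The windows of the male-wider regions had a lower median GC content, 46.7%, than those of all shared regions, 49.3%, and its part in these shares was not tested.

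The 12 regions with the largest difference, taking the smaller of the strains' differences, included 5 with 1 male peak in both strains, those nearest Prim2, Gm11128, Gm10384, Megf11 and Mgat5, and 7 with more than 1 male peak in at least 1 strain. The largest was chr1:33270204-33272467, between genes and 407 kb from the nearest protein-coding start, that of the DNA primase subunit Prim2. The B6 male list covered 2264 bp and the CAST male list 1989 bp in 1 peak each, while the B6 female list covered 764 bp in 3 pieces and the CAST female list 231 bp. Fold enrichment was 4.08 and 4.04 in the males and 2.18 and 2.19 in the females. Both male lists stood above both female lists in length and height.

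The intergenic region chr14:69425218-69427407, 151 kb from the metalloprotease gene Adam28, was covered over 2071 bp (B6) and 1691 bp (CAST) in males and 533 and 263 bp in females. Most of the gain was to the right of the female peak, 1181 of 1538 bp in B6 and 1382 of 1428 bp in CAST. At chr17:80890569-80894162, 10.8 kb from Sos1, which encodes a Ras exchange factor, the lengths were 3236, 1824, 2667 and 1071 bp in B6 males, B6 females, CAST males and CAST females. There the fold enrichment in B6 was lower in males (2.47) than in females (2.61), though the male peaks were longer.

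Inside Vps13d, a gene for a lipid transfer protein, chr4:144675991-144678574 was covered over 2310, 860, 2072 and 685 bp in the same order of lists. The region chr18:9670850-9673358, 34.3 kb from the scavenger receptor gene Colec12, had 2509, 1178, 1815 and 368 bp. In an intron of Odz2, a teneurin gene, chr11:36445225-36447215 had 1564, 249, 1741 and 275 bp, ratios of 6.28 in B6 and 6.33 in CAST, the highest pair in the set. Its female peaks compare with shortest peaks of 216 bp in the B6 and 185 bp in the CAST female list, and their -log10 q was 2.20 and 2.71, against 23.32 and 15.82 in the males.

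Near the beta-defensin gene Defb29, chr2:152372624-152374601 had 1703, 278, 1849 and 565 bp in B6 males, B6 females, CAST males and CAST females. The region chr6:85770575-85772517 covered the start of the predicted gene Gm11128 and part of Cml5, of the camello-like acetyltransferase family, with 1810, 567, 1943 and 331 bp. All 1243 bp gained in B6 males there were gained in CAST males. These genes have close copies nearby, and only uniquely mapped reads were kept by the authors, so reads shared between copies are missing. A second promoter, that of Megf11, a gene for a transmembrane protein with EGF-like repeats, lay in chr9:64394119-64395785, with 1630, 361, 1667 and 440 bp. Its fold enrichment was lower in males than in females in both strains, 2.20 against 2.37 in B6 and 2.26 against 2.29 in CAST, so this region was wider but not taller in males.

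The other 3 of the 12 were at chr15:36828307-36830373 (2067, 831, 1955 and 587 bp), in a run of regions described below, in an intron of Mgat5, which encodes an enzyme that branches N-glycans (chr1:129165389-129167525; 2000, 787, 1829 and 558 bp), and at chr15:3669342-3671625, 136 kb from the start of Ghr (2231, 1050, 2020 and 737 bp). At the last, fold enrichment was 4.41 (B6) and 3.94 (CAST) in males and 2.69 and 2.13 in females, with both male values above both female values.

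**Figure D4:**
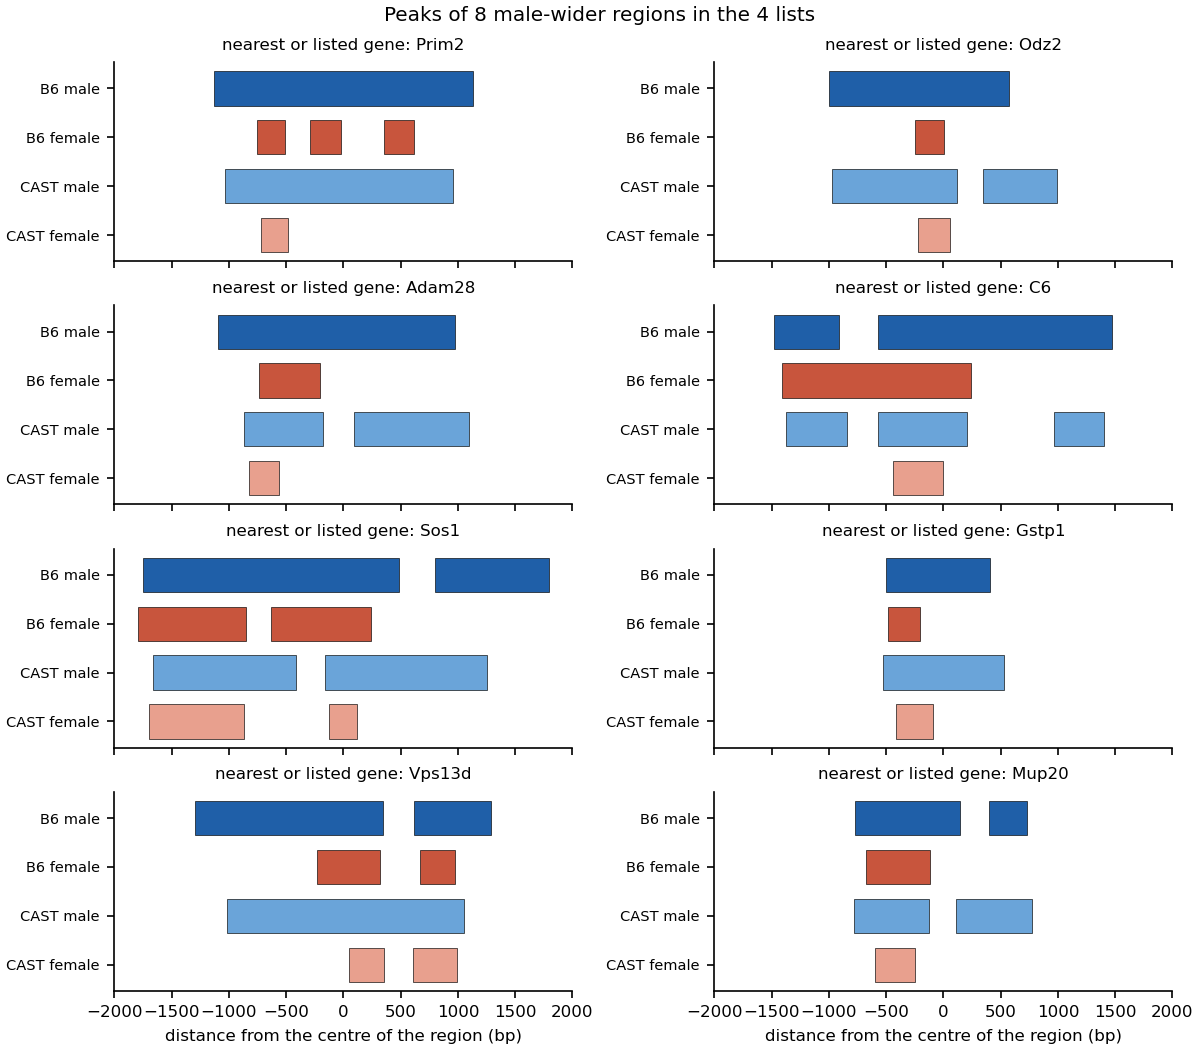
Peaks of 8 male-wider regions in the 4 lists, drawn to scale against the distance from the region's centre (bp) and named by the nearest or listed gene. The Prim2 region shows 1 male peak over 3 short B6 female peaks, the Adam28 and Gstp1 regions show gain mainly on the right in both strains, and the Odz2 region shows gain on both sides of a short female peak.

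Ranked by ratio instead, the Odz2 region came first, followed by chr10:58623570-58625367 in an intron of the septin gene Sept10, with 1798, 294, 1368 and 219 bp in B6 males, B6 females, CAST males and CAST females and ratios of 6.12 and 6.25. Next was chr6:141960418-141962133, 3.15 kb from the predicted gene Gm6614 and 64.9 kb from the organic anion transporter gene Slco1a1, with 1419, 241, 1476 and 291 bp. The remaining 3 were in an intron of the adhesion receptor gene Lphn3 (1111, 228, 1053 and 221 bp), over an exon of Atf6b, which encodes a transcription factor of endoplasmic reticulum stress (1253, 234, 1044 and 221 bp), and 63.2 kb from the efflux transporter gene Abcg2 (1297, 254, 1341 and 335 bp). In each of these 6 regions the female lists held 1 short peak each.

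Among listed genes with higher expression in male mouse liver, 25 had a shared region within 10 kb of the gene body. Of these, 6 had a male-wider one, and none had a female-wider one. These 25 genes had 106 shared regions, of which 7 were male-wider (6.60%, 3.24 to 13.01), against 1.77% (1.64 to 1.91) of the 37342 shared regions near any protein-coding gene. Among listed genes with higher expression in female liver, 16 had shared regions, 80 in all, with no male-wider region (an upper bound of 4.58%). There were 4 female-wider ones (5%, 1.96 to 12.2, against 0.517% near any protein-coding gene), at Cux2, Fmo2 and Nt5e. The counts are small and the lists were drawn up with results of these data known. The paper shows some of the listed genes, among them C6, Gstp1, Nt5e and Cux2, for sex-biased H3K27ac in these same libraries. These shares are therefore a description and no independent support.

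The regions at the 6 male-biased genes were as follows. Cyp2d9, a steroid-hydroxylating cytochrome P450, had a region whose centre lay 8.10 kb upstream of its start (chr15:82274083-82275329), covered over 943, 416, 1158 and 412 bp in B6 males, B6 females, CAST males and CAST females. A second one covered its end (chr15:82287112-82288180), with 1045, 265, 1049 and 560 bp and a weak B6 female peak (-log10 q of 1.92). Their fold enrichment was not uniformly higher in males, since the upstream region had 3.07 in B6 males and 3.40 in B6 females.

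At Mup20, a major urinary protein that acts as a male pheromone, chr4:61723977-61725530 lay 8.79 kb from the gene on the upstream side and had 1243, 562, 1324 and 344 bp, with fold enrichments of 4.34, 2.94, 3.89 and 2.52. Both male lists were above both female lists on both measures. At Gstp1, a glutathione transferase of the pi class, chr19:4024678-4025733 stood 9.68 kb past the end of the gene with 910, 283, 1056 and 323 bp and fold enrichments of 2.92, 2.38, 3.11 and 2.22.

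At C6, which encodes a component of the complement membrane attack complex, chr15:4676316-4679267 covered the gene's start, over 2606 bp in males and 1652 bp in females of B6 and over 1742 and 435 bp in those of CAST. The B6 female coverage was close to that of CAST males, so the order of the 4 lists followed both sex and strain here. This was the only shared region within 10 kb of C6. The printed window of this region lies in an intron of C6. Upstream of Serpina1e, an alpha-1-antitrypsin gene, chr12:105205311-105206519 had 1176, 418, 911 and 470 bp, and its fold enrichment was lower in males in both strains. In an intron of Egfr, the epidermal growth factor receptor, chr11:16751175-16752362 had 557, 238, 807 and 379 bp and was 1 of 14 shared regions at the gene. Mup20, Cyp2d9, Gstp1 and Serpina1e belong to families with near-identical copies, where peaks depend on the reads that could be placed uniquely.

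With the window widened to 100 kb, a choice made after the data were seen, 13 of the 27 male-biased genes with a shared region had a male-wider one (48.1%, from 13 distinct regions) and none a female-wider one, against 14.7% and 4.19% of all protein-coding genes. The genes added were Susd4, Mup3, Mup21, Slco1a1, Nudt7, Moxd1 and Gstp2. Of these, Mup3 and Mup21 were added by the region already counted for Mup20, and Gstp2 by that of Gstp1. Nudt7, Serpina1e and Cyp2d9 had 2 regions each, so genes and regions do not match one to one. The Susd4 region (chr1:184896926-184898689), 70.2 kb from that complement regulator's gene, had 1516, 441, 1614 and 304 bp in B6 males, B6 females, CAST males and CAST females. The region 36.7 kb from Moxd1, which encodes a monooxygenase, had 781, 363, 1087 and 357 bp. Both regions near Nudt7, a peroxisomal hydrolase gene, were longer but lower in males, with fold enrichments of 1.43 and 1.91 in B6 males and females at the first and 1.68 and 2.12 at the second. Of the 21 female-biased genes, 1 had a male-wider region within 100 kb, Cyp17a1 at 47.2 kb, and 4 had a female-wider one.

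**Figure D5:**
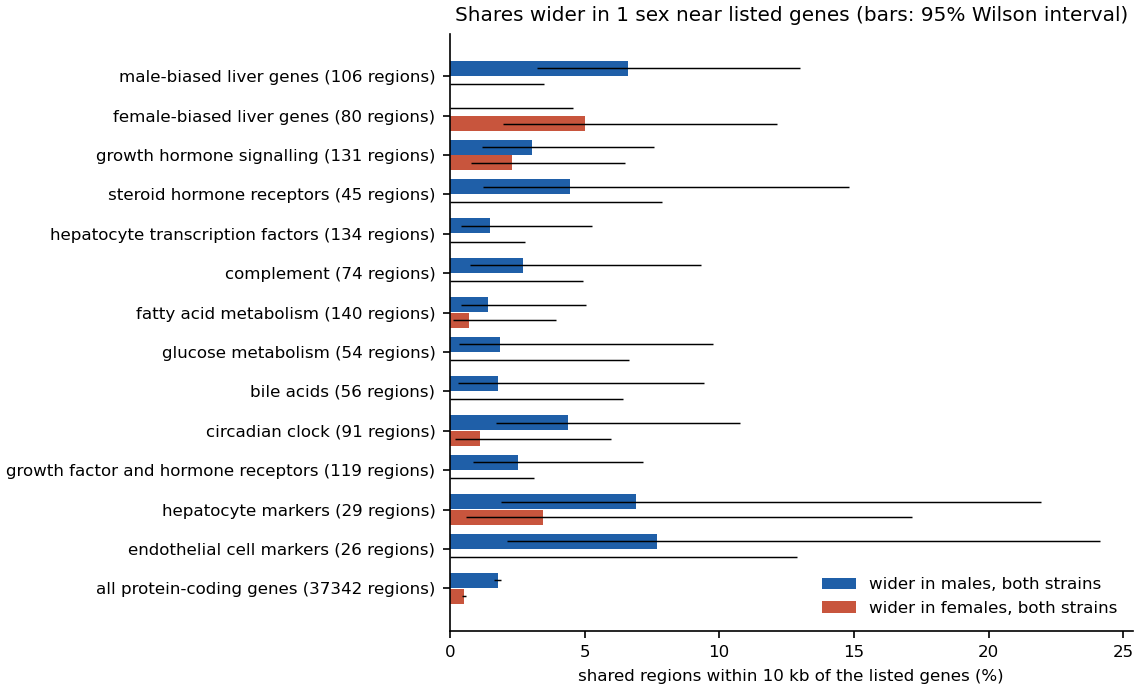
Share of the shared regions within 10 kb of each gene list (horizontal axis, %) that were male-wider (blue) or female-wider (red) in both strains, with 95% Wilson intervals, for lists with at least 20 shared regions. Male-biased genes show 6.60% and 0, female-biased genes 0 and 5%, and all protein-coding genes 1.77% and 0.517%; the intervals of most other lists include the values for all genes.

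Growth hormone signalling had male-wider regions at 3 of 20 genes and female-wider ones at 2, against 5.08% and 1.45% of all protein-coding genes with a shared region. Of its 131 shared regions 4 were male-wider (3.05%, 1.19 to 7.59), an interval that includes the 1.77% near any protein-coding gene, and 3 were female-wider (2.29%, 0.782 to 6.52), an interval above the 0.517% near any protein-coding gene. Ghr itself, the growth hormone receptor, held 2 male-wider among its 28 shared regions, both in introns. At chr15:3448295-3450055 the lengths were 1516, 995, 1479 and 742 bp, and at chr15:3508544-3509380 they were 739, 400, 688 and 376 bp in B6 males, B6 females, CAST males and CAST females. At Igfbp1, which encodes a binding protein of insulin-like growth factors, chr11:7092939-7094477 lay 4.08 kb upstream, measured from its centre, with 959, 446, 1324 and 805 bp. Past the end of Ptpn1, a tyrosine phosphatase gene, chr2:167807356-167808958 had 1409, 670, 1603 and 431 bp and overlapped the neighbouring gene Fam65c. Of the female-wider regions of this list, 2 were at Cux2, a repressor found in female liver, and 1 at Stat3. Cux2 is also on the list of female-biased genes. The interval for the female-wider share counts regions and not genes, so it is not evidence about the list as a whole.

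Esr1, the estrogen receptor alpha, was the only one of 4 autosomal steroid receptor genes with a male-wider region. It had 2 of them among 17 shared regions, and the list had 2 of 45 (4.44%, 1.23 to 14.8), an interval that includes the 1.77% near any protein-coding gene. At chr10:5570513-5571344 the lengths were 820, 434, 730 and 320 bp. At chr10:5632888-5634393, which covers an annotated Esr1 transcript start and overlaps an exon, they were 1506, 871, 1410 and 466 bp. Fold enrichment was higher in males than in females of the same strain at both. The CAST female peak of the second region was a weak call, with a fold enrichment of 1.72 and a -log10 q of 1.89.

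Of 16 genes for hepatocyte transcription factors, Prox1, which is needed for liver growth, had 2 male-wider regions. They were at its far end (1355, 814, 1641 and 564 bp) and upstream of its start, with its centre at 2.21 kb (856, 532, 919 and 337 bp). Of 14 clock genes, 3 had male-wider regions. Arntl had 2 intronic ones (2738, 1761, 1865 and 943 bp, then 1425, 888, 739 and 336 bp). The repressor gene Per1 had 1 past its end (901, 262, 1174 and 725 bp). Tef, a PAR-type transcription factor gene, had 1 over an annotated transcript start and an exon (1570, 461, 1252 and 778 bp). At the first Arntl region the B6 fold enrichment was 2.60 in males and 3.23 in females. By the study's methods, all mice were killed within 1 narrow window of the morning. Of the shared regions at each list, 1.49% (0.410 to 5.28) at hepatocyte transcription factors and 4.40% (1.72 to 10.8) at clock genes were male-wider, with intervals that include the 1.77% near any protein-coding gene.

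In metabolism, a male-wider region was found among genes of fatty acid handling at Fabp1, the liver fatty acid binding protein (1092, 709, 1544 and 710 bp). Others were at 1 of 9 glucose genes, the transporter Slc2a2 (1062, 631, 971 and 591 bp), and at 1 of 10 bile acid genes, Slc27a5 (1068, 473, 1057 and 650 bp), where the region overlapped the neighbouring gene Zfp446. The shares of shared regions that were male-wider in these lists, from 1.43% for fatty acid genes to 1.85% for glucose genes, had intervals that include the value for all protein-coding genes.

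The tissue was checked against markers of liver cell types. A peak lay within 2.5 kb of a transcript start of 5 of 6 hepatocyte markers in each of the 4 lists, but directly over a start of only 1 in B6 males and none in the other lists. For Kupffer cell markers this was 0 of 4 genes, except 1 in B6 females, and for lymphocyte markers 0 of 4 in every list. Endothelial markers had 3 of 4, and stellate and cholangiocyte markers 2 of 4 each, in every list. Male-wider regions stood at the hepatocyte genes Alb (879, 493, 710 and 329 bp) and Ttr (1794, 1161, 1190 and 582 bp) and at the endothelial genes Cdh5 (1034, 261, 851 and 521 bp) and Pecam1 (1715, 1082, 1404 and 839 bp), while the Kupffer, stellate, cholangiocyte and lymphocyte lists had only 0, 3, 2 and 3 shared regions, too few for a count of male-wider ones to be read. Alb also had a female-wider region. The hepatocyte list had 2 male-wider (6.90%, 1.91 to 21.96) and 1 female-wider (3.45%, 0.611 to 17.2) of 29 shared regions, and the endothelial list 2 male-wider (7.69%, 2.14 to 24.1) and no female-wider of 26, against 1.77% and 0.517% near any protein-coding gene. Whole liver mixes these cell types, and a change in their numbers and a change within 1 type cannot be told apart.

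The 891 regions formed 808 groups when regions up to 100 kb apart were joined: 733 held 1 region, 69 held 2, 4 held 3 and 2 held 4. One group of 4 was chr15:36802787-36845215, a 42.4 kb stretch beside the predicted gene Gm10384 in which all 4 shared regions were male-wider. From left to right they covered 1421, 661, 1532 and 980 bp, then 1427, 624, 1090 and 547 bp, then the 2067, 831, 1955 and 587 bp given above, then 1660, 1087, 2116 and 977 bp in B6 males, B6 females, CAST males and CAST females. The other group of 4 ran over 182 kb of the laminin gene Lama3 and its neighbour Ttc39c (chr18:12612903-12795090), where 4 of 7 shared regions were male-wider. One of these, at chr18:12708737-12710867, was lower in males in both strains, with fold enrichments of 2.72 and 4.40 in B6 males and females and 3.12 and 4.67 in CAST.

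Groups of 3 lay at Acot11, which encodes an acyl-CoA thioesterase (3 of 12 shared regions), around the Wnt coreceptor gene Lrp6 (3 of 16), between the Hedgehog pathway factor Gli1 and the activin subunit gene Inhbe (3 of 4, within 16.8 kb), and from Ndufa4l2 to Lrp1, a large lipoprotein receptor gene (3 of 10). In the Gli1 group the lengths were 1352, 857, 1252 and 680 bp, then 1162, 595, 1033 and 259 bp, then 1836, 1211, 875 and 286 bp. In the last of these the B6 female coverage exceeded the CAST male coverage, so the male lists were not above both female lists.

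The count of male-wider regions was 671 with peaks of -log10 q of at least 5 only (1.68% of 39835 shared regions). It was 855 with each list shortened to its 78693 highest peaks. The 671 are not a subset of the 891. The 334 regions with a female peak under that limit in at least 1 strain could not be among them. How many of the 891 stayed under each setting was not counted. Dividing male lengths by the median ratio over all shared regions gave 721 male-wider and 316 female-wider regions. Under the stricter peaks, the female peak was gone in at least 1 strain in many of the regions named for size, among them those at Prim2, Odz2 and Cml5, which then had male peaks alone.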

How the data were processed

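Liver H3K27ac ChIP-seq peaks were analysed from 4 lists, one per strain and sex. The authors merged the reads of 5 livers per group, mapped them with Bowtie2 to mm9 (CAST reads to a CAST version whose coordinates were converted to mm9), kept uniquely mapped reads, called peaks with MACS2 against the group's input and removed blacklisted peaks, per the paper's methods and the submitters' processing notes. The deposited columns hold a peak score, a fold enrichment over input (ratio), and the −log10 of a p-value (not used) and of a q-value, none of them per liver. Read depth is not in the lists, which limits any comparison of peak lengths between them. No column of any other sample was present.

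Peaks on autosomes that overlapped by at least 1 bp were joined, and the bases covered by each list were counted once per region. Distances and overlaps used GENCODE M1 on NCBIM37, from region edge to nearest transcript start. Percentiles rank each peak's score within its list. Windows of 300 bp for the elements were centred on the middle of the highest B6 male peak. The rule was tested on simulated lists. Named regions were the 12 of largest difference, the 6 of largest ratio, those within 10 kb of listed genes, the 6 largest groups and the 3 on each side of the thresholds. The members and lists were chosen with earlier results of these data known. Intervals are 95% Wilson intervals. Thresholds, stricter peaks, equal list lengths and other distances were tried as alternatives. Python 3 with numpy and pandas was used. Some items among the named regions and sequences are not reported here.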

Additional observations from a re-analysis of the deposited data

Results flagged for a closer look

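Regions in which the difference between males and females took opposite directions in the strains were singled out because the single difference of one strain had the opposite sign to that of the other. There were 205 shared regions wider in males in B6 and wider in females in CAST, and 405 wider in females in B6 and wider in males in CAST. Each strain gave 1 list per sex, so the difference between strains was not tested.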

How the results depend on the processing

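No paired analysis was possible because the libraries of each group were pooled before peaks were called and the lists carry no replicates; for the same reason no library could be left out. Male-wider regions in both strains numbered 1691 with a male to female ratio of at least 5:4, 285 with a ratio of at least 2 and 231 with a difference of at least 600 bp; the 6 other settings gave 671 to 1239. In B6 these 3 settings gave 6398, 2026 and 1586, and in CAST 7458, 2430 and 1929. Female-wider regions in both strains numbered 468, 82 and 40, and 433 with a difference of at least 150 bp. The share of male-wider regions far from a transcript start was 87.7% beyond 1 kb, 72.3% beyond 5 kb, 84.8% with protein-coding transcripts only and 78.1% with peaks of -log10 q of at least 5. With gene bodies widened by 10 kb, 74.2% overlapped one. The share higher in males in both strains was 49.9% by fold enrichment and 55.2% by score percentile. Of the 34 ratios of the 17 regions named for size, 15 could not be computed with the stricter peaks and 3 with the shortened lists because no female peak was left; of those computed, 15 of 19 and 31 of 31 kept their value and none fell under 1. Other listed-gene windows are given with their values in the report. Peak length depends on depth, which the lists do not give.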

Other observations

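On chromosome X, which the rule left out, 789 regions had a peak in all 4 lists. Of these, 8 (1.01%) met the male-wider rule and 10 (1.27%) the female-wider rule in both strains.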
